A study of Mus musculus with 7 samples.

Results

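Blood capillaries carry most of the exchange between the blood and a tissue. Their endothelial cells hold lipoprotein lipase at the vessel surface through Gpihbp1, take up fatty acids through Cd36 and Fabp4, and read VEGF through Flt1 and Kdr. In a lymph node they lie between arterioles and the high endothelial venules, the vessels through which lymphocytes enter, and they form a network that expands after birth. Capillary blood endothelial cells of the mouse mesenteric lymph node (mLN), which drains the gut, were followed here from the day of birth to day 300.

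Members were chosen cell by cell from their own counts of unique molecular identifiers (UMIs, 1 per captured RNA molecule). Kept cells had 1000 to 4600 genes detected and no more than 4.5% mitochondrial UMIs. A kept cell counted as endothelial with at least 2 UMIs of Pecam1, the gene of CD31. It counted as a capillary cell when Rgcc, Gpihbp1 and Rbp7 together gave at least 3 UMIs, Prox1, Mmrn1 and Lyve1 (lymphatic genes) under 2, and Ackr1, Selp, Sele, Chst4 and Fut7 (venular genes) under 3. This gave 1364 capillary cells of 2617 endothelial cells, 13197 kept cells and 17692 cells in the table. The other 1253 endothelial cells, which are lymphatic, venular and remaining cells together, served for comparison, as did 9542 kept cells without a Pecam1 UMI. Since these genes defined the members, their levels are given as a description only, and so is every difference between capillary and other endothelial cells at a single age.

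The cells came from BALB/c mice held under specific pathogen free conditions and taken on the day of birth (D0) or 10, 24, 56 or 300 days later (D10 to D300). All samples were digested with collagenase P, dispase and DNase I, depleted of CD45+ cells and sorted for cells negative for CD45 and CD24, so most CD45+ and CD24+ cells were removed before sequencing. By the labels D56 and D300 had 2 libraries each and the other 3 ages a single one, whereas the study's legends give a single replicate at D300. The libraries within D56 and within D300 could not be told apart, so each age was 1 sample. Age cannot be told apart from library or from any difference in preparation, and no days of preparation are stated. For the D56 data the study's methods cite an earlier publication. How many mice were pooled was not given in the sources used here, and females were used unless stated otherwise.

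Capillary cells numbered 128, 193, 282, 375 and 386 from D0 to D300 and gave 989883 to 1779216 UMIs per age. Their median depth was 6857.5 UMIs per cell at D0 and 3868 at D300, against 7892 and 4219 in the other endothelial cells. At D10, 26.4% of members had a Xist UMI and 47.7% had a UMI of a Y-linked gene, so that library held cells of both sexes, while 88.3% to 96.9% had Xist at the other ages. UMIs of fibroblast, perivascular or leukocyte genes were common, with at least 2 in 87.6% to 98.4% of members per age. The 11 fibroblast genes summed to 4692, 1670.5, 1094, 2756 and 1798 counts per 1000000 UMIs (CPM) in members, which was 11.6%, 4.22%, 3.44%, 10.6% and 6.17% of their sum in cells without Pecam1. Genes of pancreatic acinar cells summed to 1267, 22.9, 1470.3, 18.4 and 40.4 CPM, and leukocyte genes to 9.09, 14.5, 17.4, 14.4 and 34.1 CPM. Levels in cells without Pecam1 are given beside genes that are high there, and their part in a result was not tested.

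The genes of the rule were carried unevenly. Gpihbp1, which carries lipoprotein lipase, was detected in 93.3% of members, Rgcc, a regulator of the cell cycle, in 85.7%, and Rbp7, a retinol-binding protein, in 55.1%, and all of them in 44.5%. At the limit itself, 107 members with a sum of 3 UMIs had 631 CPM of Flt1 and 377 CPM of Cd300lg, and 86 cells with a sum of 2, which passed the other conditions, had 543 and 201 CPM. From D0 to D300, Gpihbp1 stood at 1299, 741, 916, 1359.7 and 1271 CPM, Rgcc at 1111, 1179, 1239.9, 943 and 722 CPM and Rbp7 at 431, 328, 438, 557 and 626 CPM. Rgcc was lowest at D300 and Rbp7 highest there.

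Levels of genes outside the rule are described next. They are no test of the label, since genes that vary with those of the rule had to differ. Flt1, a VEGF receptor, was at 486, 456, 796, 935 and 950.4 CPM in members from D0 to D300 and at 93.4, 128, 139, 166 and 219 CPM in the other endothelial cells. Kdr, the main signalling receptor for VEGF, was at 431, 483, 608, 645 and 535 CPM against 223, 275, 244, 259 and 204. Both were higher in members at 5 of 5 ages, and cells without Pecam1 held 2.69 to 11 and 8.25 to 20.1 CPM. The fatty acid carrier Fabp4 was at 3187, 2417, 5079.8, 6309 and 3278 CPM and the fatty acid receptor Cd36 at 743, 431, 652, 683 and 751 CPM, with medians of the log2 ratio to the other endothelial cells of 1.14 and 1.10. Of the 16 genes of the capillary list outside the rule, 14 were higher in members at every age, beside 18.4% of the genes measured (16.3% were lower at every age), and Timp4 and Meox2 at none. Of the 16, 8 were at least 2-fold higher at every age, beside 1.82% of the 11129 genes measured. Cldn5, a tight junction protein of endothelium, ran the other way, with 641, 479, 205, 377 and 220.0 CPM in members against 1902, 1458, 1163, 1108 and 691 CPM in the other endothelial cells. Perivascular genes summed to 426, 793, 764, 339.5 and 639 CPM in members and to 1409, 2093, 1319, 1183 and 929.8 in cells without Pecam1. In the other endothelial cells they summed to 279, 298, 339, 353 and 419 CPM. Of the 11 perivascular genes, 7 were higher in members than in the other endothelial cells at every age and 0 were lower at every age.

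**Figure D1:**
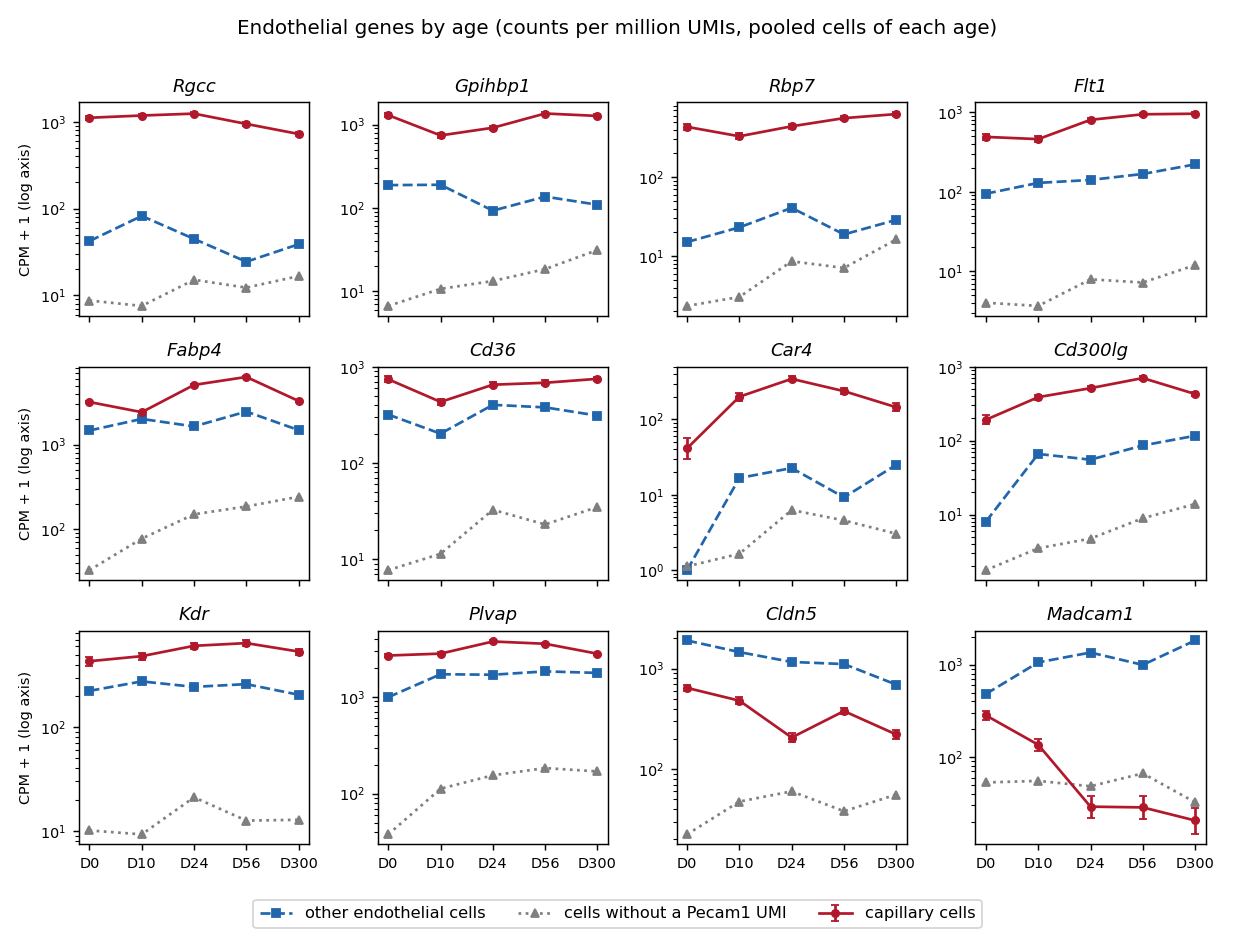
Levels of 12 endothelial genes at each age, in counts per 1000000 UMIs plus 1 on a log axis, for capillary cells (red, with 95% Poisson intervals of the counts), other endothelial cells (blue) and cells without a Pecam1 UMI (grey). Rgcc, Gpihbp1 and Rbp7 chose the cells. Flt1, Fabp4, Cd36, Car4, Cd300lg, Kdr and Plvap were higher in capillary cells at every age, and Cldn5 and Madcam1 were lower at every age.

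Capillary cells made up a larger share of the endothelial cells at D300 than at D0. The shares were 34.1%, 48.9%, 53.2%, 50.3% and 67.6% in order of age, from 375, 395, 530, 746 and 571 endothelial cells. Their 95% exact binomial intervals ran from 29.3 to 39.2, 43.8 to 53.9, 48.9 to 57.5, 46.6 to 53.9 and 63.6 to 71.4. The intervals of D10, D24 and D56 overlapped, and those of D0 and D300 stood apart from them. They cover counting error only, with 1 sample per age no test between single ages was possible, and a trend across the 5 ages was not tested. Cells with at least 2 lymphatic UMIs were 33.9% (29.1 to 38.9) of endothelial cells at D0 and 10.5% (8.11 to 13.3) at D300. Among blood endothelial cells, that is without the lymphatic ones, the capillary share was 51.6%, 64.3%, 72.5%, 65.1% and 75.5%. When every cell was thinned to 2000 UMIs before the rule was applied, the share was 41.0%, 39.9%, 53.2%, 52.1% and 61.3%, so the value at D10 was no longer above that at D0. Digestion and sorting can recover cell types unequally, which was not tested.

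**Figure D2:**
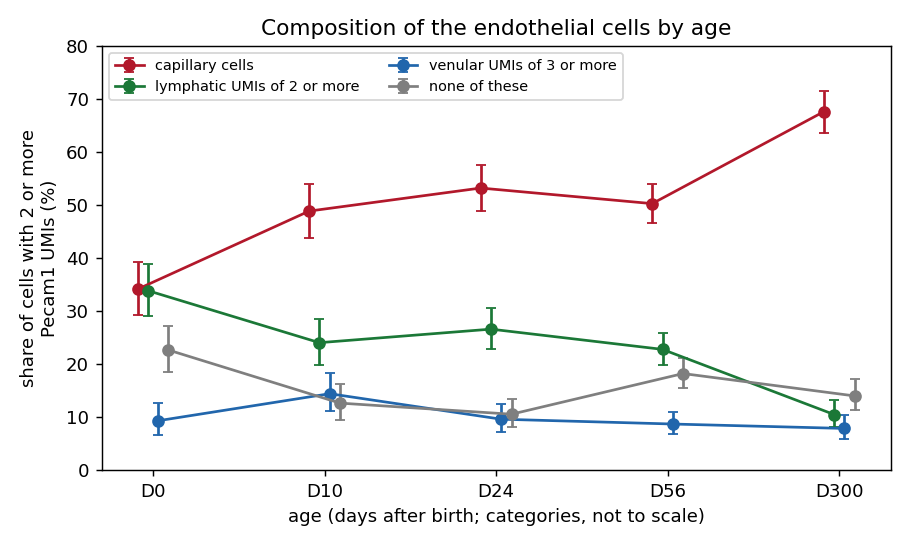
Share of each class among cells with at least 2 Pecam1 UMIs, in percent, at the 5 ages (evenly spaced categories), with 95% exact binomial intervals. Capillary cells (red) went from 34.1% to 67.6%, and cells with lymphatic UMIs (green) from 33.9% to 10.5%.

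Against the other endothelial cells, 202 genes were at least 2-fold higher in members at 5 of 5 ages (1.82% of 11129 genes) and 300 were at least 2-fold lower at 5 of 5 ages (2.7%). Since the rule chose the cells by this contrast, nothing is read from these counts. The 10 genes with the highest and the 10 with the lowest median ratio among them are described. Esm1, a secreted proteoglycan that VEGF induces and that marks tip cells, was at 119, 171, 173, 187 and 268 CPM in members and at 0.469, 9.89, 5.54, 7.39 and 39.7 CPM in the other endothelial cells. Aqp7, a glycerol channel, was at 78.8, 56.1, 79.2, 119 and 47.3 CPM against 2.35, 11.1, 2.52, 6.52 and 9.24. Car4, a carbonic anhydrase bound to the surface of capillaries, was at 40.4, 199, 345, 237 and 144 CPM against 0, 15.7, 21.6, 8.26 and 24, and in members it was lowest at D0 and highest at D24. Cd300lg, a mucin-like receptor, stood at 191, 387, 513, 703 and 427 CPM against 7.04, 65.2, 54.4, 85.2 and 116. The other leading genes were Ramp3, a subunit of adrenomedullin receptors, Nes, an intermediate filament, Mcf2l, an exchange factor for small GTPases, Col13a1, a collagen with a membrane span, Slc26a10 and Thrsp, with medians of the log2 ratio over ages between 3.09 and 3.49. Of these 10 genes, Esm1 had the highest ratio, 4.66.

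At the other end, Marco, a scavenger receptor, was at 0, 0.693, 1.12, 3.45 and 1.15 CPM in members against 145, 239, 117, 86.9 and 118, and Cldn11, a claudin, at 4.04, 5.54, 6.74, 2.3 and 0 CPM against 225, 242, 226, 167 and 136. Nts, neurotensin, was at 2.02, 4.85, 8.99, 7.47 and 9.82 CPM against 105, 165, 553, 307 and 450.2. Cytl1, Klrb1f, Gpm6a, Slc45a3 and Sema3d had median log2 ratios from -5.45 to -5.09, and members held 0 to 12.5 CPM of them. Glycam1 and Madcam1, ligands for lymphocyte homing receptors on high endothelial venules, were also among the 10 lowest. Without lymphatic cells in the comparison group, 109 genes were at least 2-fold higher and 119 lower at every age.

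Some gene groups were detected in a minority of members. To compare ages at equal depth, cells were thinned to 2000 UMIs and called positive with at least 2 UMIs of a group, which left out 8 of 375 members at D56 and 7 of 386 at D300. The interferon group (Ifit1, Ifit2, Ifit3, Isg15, Rsad2 and Usp18) was carried by 9.38% (4.94 to 15.8), 16.1% (11.2 to 22), 24.5% (19.6 to 29.9), 25.3% (21 to 30.1) and 33% (28.3 to 38) of members from D0 to D300, and before thinning by 36.7%, 42%, 51.1%, 49.6% and 54.7%. In the other endothelial cells the shares after thinning were 9.31%, 2.99%, 11.3%, 13.2% and 18.4%, and in cells without Pecam1 2.95% to 8.08%. The intervals of members and other endothelial cells overlapped at D0 and did not overlap at D10, D24, D56 and D300. These intervals cover counting error only and not the spread between mice. Since the rule chose the members, the contrast between the classes is given as a description and was not tested.

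Genes of dividing cells were found mainly in the youngest members. The cycling group (Mki67, Top2a, Cdk1, Ccnb1, Birc5 and Cenpf) was carried by 10.9% (6.11 to 17.7), 11.4% (7.28 to 16.7), 1.42% (0.388 to 3.59), 0.272% (0.0069 to 1.51) and 0.264% (0.00668 to 1.46) of members, and before thinning by 22.7%, 20.7%, 4.26%, 0.8% and 0.777%. After thinning this was 14 of 128 cells at D0, 22 of 193 at D10, 4 of 282 at D24, and 1 cell each at D56 and D300. The other endothelial cells gave 6.48%, 10.4%, 2.42%, 0.822% and 0.559%. Members and other endothelial cells both held over 6% at D0 and D10 and under 1% at D56 and D300. Cells without Pecam1 gave 9.15%, 4.44%, 0.489%, 0.0391% and 0.0748%, so their share was also highest at D0.

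Arterial genes (Gja4, Gja5, Bmx, Sema3g, Hey1 and Fbln5) were carried by 25%, 45.1%, 25.2%, 21% and 15.6% of members, highest at D10 (49.2%, 66.3%, 52.5%, 39.7% and 30.3% before thinning). In the other endothelial cells the shares were 53%, 26.4%, 22.6%, 21.4% and 7.26%, with 4.49% to 11% in cells without Pecam1. The gap junction gene Gja4 was at 399, 643, 301, 155 and 143 CPM in members, which again peaked at D10. Tip cell genes (Esm1, Apln, Angpt2, Pgf and Kcne3), which mark the leading cell of a sprout, were carried by 14.8%, 13.5%, 12.8%, 11.2% and 14.2% of members (43%, 38.3%, 28%, 23.7% and 29.8% before thinning), by 2.74% to 8.06% of other endothelial cells and by 0.978% to 2.22% of cells without Pecam1. Of 1349 thinned members, 326 carried the arterial group and 176 the tip group, and the 42 cells with both were 12.9% of the first and 23.9% of the second. Of all thinned members, 64.0% carried none of the arterial, tip and cycling groups. The rule set no limit on arterial genes, so arterial cells can be among the members.

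**Figure D3:**
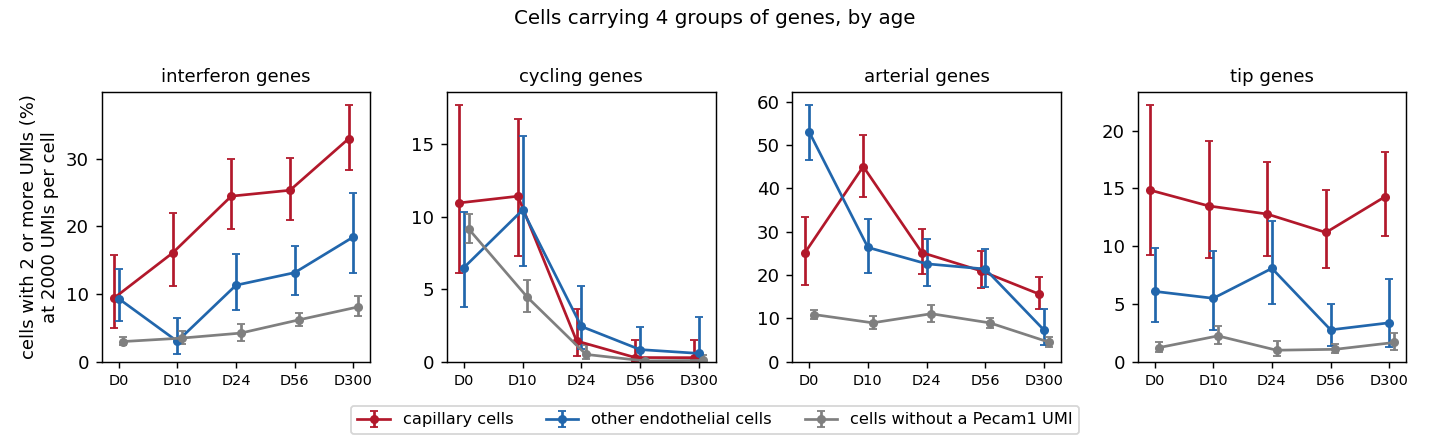
Share of cells, in percent, with at least 2 UMIs of 4 gene groups after thinning to 2000 UMIs per cell, by age, with 95% exact binomial intervals. In capillary cells (red) the interferon group went from 9.38% at D0 to 33.0% at D300, the cycling group from 10.9% to 0.264%, the arterial group peaked at 45.1% at D10, and the tip group stayed between 11.2% and 14.8%. Other endothelial cells are blue and cells without Pecam1 grey.

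Age was then tested across all genes. The UMIs of members were summed per age and a straight line against log2(day + 1) was fitted through the 5 sums with edgeR's quasi-likelihood test. A change is given as the fitted log2 difference between D0 and D300, so that 1 means a doubling over this span. Of 9227 genes with at least 50 UMIs in all, 206 rose (2.23%) and 151 fell (1.64%) with age at an adjusted p (Benjamini-Hochberg) under 0.05, and the median change of all genes was 0.02. These shares are the background for every list described below. With library sizes alone in place of TMM scaling, all changes moved by -0.23 at the median, and 129 rose and 187 fell. The fit has 3 residual degrees of freedom and rests on few points: 199, 345, 74, 179 and 42 genes were called without D0, D10, D24, D56 and D300, of which 91, 288, 64, 164 and 35 were among the 357. Of the 24 genes with the largest changes, which are named below, 13 were no longer called without D300, 10 without D24, 3 without D56 and 7 of 19 still tested without D0. Each p measures scatter about a line through 5 single samples and not the spread between mice.

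**Figure D4:**
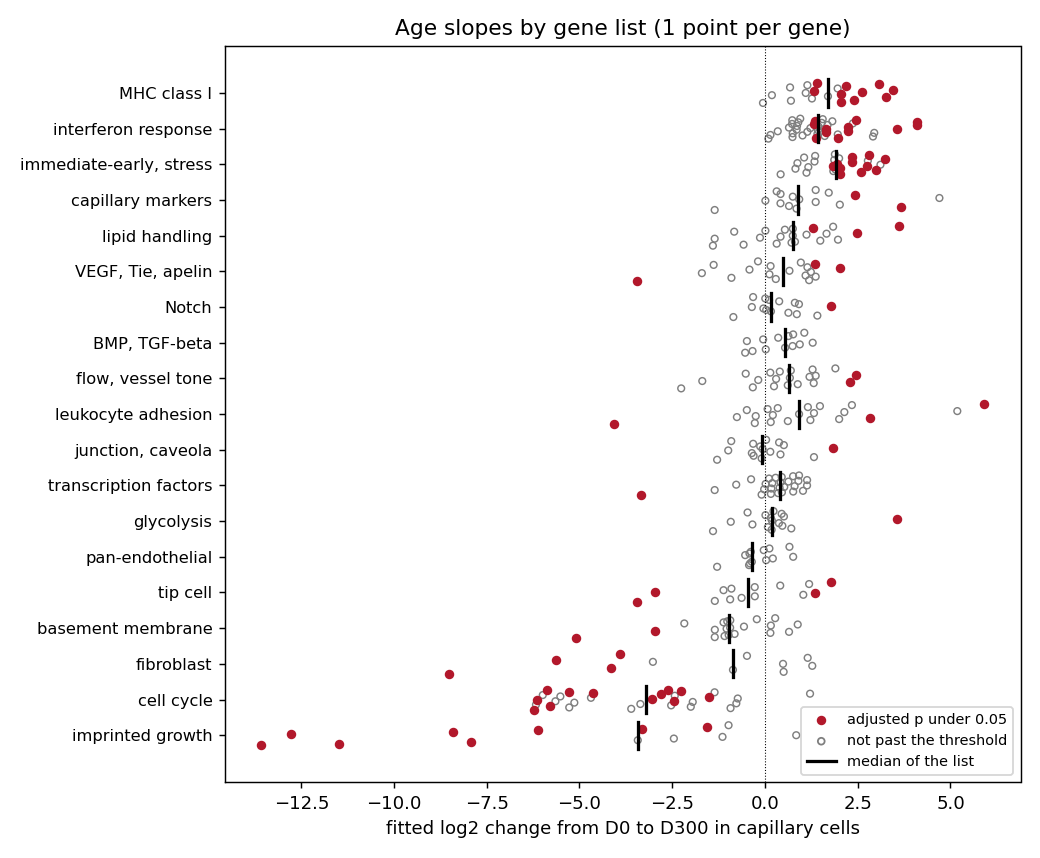
Fitted log2 change from D0 to D300 in capillary cells for the genes of 19 lists outside the rule, with 1 point per gene, red where the adjusted p was under 0.05 and grey rings elsewhere, and a black bar at the median of each list. MHC class I, interferon response and immediate-early genes lie to the right, with medians of 1.70, 1.43 and 1.92. Cell cycle genes and imprinted and fetal growth genes (labelled imprinted growth) lie to the left, with medians of -3.21 and -3.43.

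MHC class I molecules show peptides to CD8 T cells. Of 19 of their genes tested, 10 rose, 9 were not called and none fell, with a median change of 1.70 against 0.02 for all genes, and 12 of 20 rose without a filter on low counts. H2-K1, a heavy chain gene, was at 1149.6, 3197, 3321, 3279 and 4919 CPM from D0 to D300, a change of 2.19 ± 0.38 (SE, adjusted p = 0.0277). H2-D1, the other classical heavy chain measured, was at 2892, 8402, 8466, 9909 and 10349 CPM, with a change of 2.05 ± 0.46 (SE, adjusted p = 0.0499). In both, the largest step between neighbouring ages was from D0 to D10. Tapbp and Tap2, which load peptides, changed by 1.41 (adjusted p = 0.0358) and 2.04 (adjusted p = 0.0242), and the immunoproteasome subunit Psmb8 by 1.33 (adjusted p = 0.0494). The non-classical genes H2-T23 and H2-Q4 changed by 3.26 (adjusted p = 0.00833) and 3.07 (adjusted p = 0.0244), and H2-Q6, H2-Q7 and H2-T22 rose as well, although near-identical H2 genes can share reads. B2m, the light chain, was at 2602, 6958, 7115, 8793 and 8406 CPM and missed the threshold, with a fitted value of 1.96 (adjusted p = 0.0542). The other endothelial cells held 1665, 2978, 3565, 3691 and 5661 CPM of H2-K1, and no gene of the list differed between the classes in its slope. Only 1, 4, 5 and 1 genes of the list were called without D0, D24, D56 and D300. Of 5 MHC class II genes tested none was called, and their sum was 313, 463, 197, 357 and 342 CPM in members against 313, 594, 538, 571 and 1445 in the other endothelial cells. For 2 of them, Cd74 and H2-Eb1, the slope was lower in members than in the other endothelial cells, by -2.07 (adjusted p = 0.0491) and -3.32 (adjusted p = 0.0079).

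Of 39 interferon response genes tested, 12 rose, 27 were not called and none fell. The median change was 1.43, all 39 fitted changes were above 0, and 4, 3, 5 and 3 were called without D0, D24, D56 and D300. With library sizes alone 6 of 39 rose. No gene of the list differed between members and other endothelial cells in its slope. The list summed to 7151 CPM at D0 and 12197.5 at D300 in members. These sums were 6328 and 10180 in the other endothelial cells and 5361 and 8387 in cells without Pecam1. Gbp4, a guanylate-binding protein, was at 102, 233, 246, 328 and 329 CPM in members and 77.9, 105, 95.1, 124 and 128 CPM in the other endothelial cells, with 11.2 to 19.96 in cells without Pecam1, and changed by 1.96 ± 0.34 (SE, adjusted p = 0.0277). Ifi35 was at 129, 163, 233, 252 and 335 CPM and Irf7, the transcription factor that amplifies interferon production, at 70.7, 97.7, 257, 273 and 276 CPM. Rsad2, the antiviral enzyme viperin, was at 10.1, 27, 70.8, 115 and 131 CPM in members, with a counting interval of 4.84 to 18.6 at D0 and 115 to 149 at D300. Its change was 4.10 ± 0.62 (SE, adjusted p = 0.0222), and it was higher in members than in the other endothelial cells, which held 2.35, 1.16, 5.54, 22.2 and 16.6 CPM, at every age. Ifit1 and Ifit3 changed by 2.23 (adjusted p = 0.0222) and 3.56 (adjusted p = 0.0277), where Ifit3 and its close copy Ifit3b, which rose too, can share reads. Ifi27, Ifi47, Gbp7, Usp18 and Oas1a were the remaining genes that rose. Abundant members of the list did not pass the test, with 2306, 3081, 3808, 3591 and 3465 CPM of Ifitm3 and 164, 165, 191, 199 and 397 CPM of Isg15.

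The sequences upstream of the interferon genes were searched for a letter pattern. In RefSeq windows of GRCm38.p6 from 250 bases before to 50 after a start, the pattern GAAA, any 2 bases and GAAA, read on either strand, stood in 3.44% of all 32851 windows and in 3.99% of 27025 genes, in 20 of the 31 interferon list genes with a window (64.5%), and in 6 of the 9 that rose and had one. It is the core to which factors activated by interferon bind, and a match is only a description of these letters. The windows of 3 genes that rose and hold the pattern are printed 5′ to 3′ in gene direction, with the matches in capitals, which all begin and end with TTTC here since they lie on the opposite strand: Ifit3 at chr19:34583279-34583578 (plus strand), Ifit1 at chr19:34640639-34640938 (plus strand) and Rsad2 at chr12:26456403-26456702 (minus strand).
Ifit3: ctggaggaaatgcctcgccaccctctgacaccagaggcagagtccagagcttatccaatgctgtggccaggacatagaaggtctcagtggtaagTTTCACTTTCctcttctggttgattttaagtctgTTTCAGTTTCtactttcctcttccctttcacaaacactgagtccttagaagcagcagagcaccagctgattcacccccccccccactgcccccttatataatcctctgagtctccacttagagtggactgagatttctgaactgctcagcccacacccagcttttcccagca
Ifit1: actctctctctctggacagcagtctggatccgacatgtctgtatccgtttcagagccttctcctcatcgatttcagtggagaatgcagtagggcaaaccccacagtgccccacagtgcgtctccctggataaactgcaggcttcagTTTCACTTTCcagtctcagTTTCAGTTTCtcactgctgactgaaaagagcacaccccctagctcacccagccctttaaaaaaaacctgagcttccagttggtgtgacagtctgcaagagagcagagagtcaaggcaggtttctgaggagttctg
Rsad2: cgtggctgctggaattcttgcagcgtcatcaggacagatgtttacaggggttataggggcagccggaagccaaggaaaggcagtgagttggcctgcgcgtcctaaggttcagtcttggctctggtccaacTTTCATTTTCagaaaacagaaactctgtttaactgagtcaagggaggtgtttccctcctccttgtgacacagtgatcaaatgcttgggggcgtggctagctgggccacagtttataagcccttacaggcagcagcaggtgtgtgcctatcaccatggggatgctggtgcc
Ifit3 and Ifit1 hold 2 matches each and Rsad2 holds 1. Irf7, Ifi35 and Ifi47, which rose too, hold none in their windows, and 3 of the 12 genes that rose had no window. Of 18 MHC class I list genes with a window, 5 held the pattern, and of 25 cell cycle genes none. The letters CCAAT, counted on their own on either strand, stood in 20 of the 25 cell cycle genes (80%) and 13 of the 18 MHC class I genes (72.2%), against 41.1% of all genes.

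Of 30 cell cycle genes tested, 12 fell, 18 were not called and none rose, with a median change of -3.21, and 14, 0, 3 and 0 fell without D0, D24, D56 and D300. Cdk1, the mitotic kinase, was at 105, 90.7, 14.1, 9.19 and 4.62 CPM and Top2a, a topoisomerase of dividing cells, at 90.9, 63.7, 10.7, 1.15 and 0.577 CPM. Tubb5, a tubulin, fell from 1468 to 319.9 CPM, a change of -2.25 ± 0.42 (SE, adjusted p = 0.0325). Tk1, 2810417H13Rik (a PCNA-binding factor of S phase) and the histone gene Hist1h2ap were among the 12 genes with the largest falls, with 82.8, 38.8, 7.87, 1.72 and 0.577 CPM of Tk1, 175, 105, 15.7, 1.15 and 2.31 CPM of 2810417H13Rik and 63.6, 9, 1.69, 0.574 and 0 CPM of Hist1h2ap. Histone mRNA without a long poly(A) tail is captured poorly by this chemistry. Levels were lower at D24 than at D10 in all of these. Pcna did not pass the test, with 96, 72, 71.4, 86.2 and 194 CPM and a fitted value of 1.21 (adjusted p = 0.214). When cells with cycling genes were left out, 3 genes of the list fell and 1 rose among the 17 still tested, although the cells were left out by 6 genes of the list.

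Imprinted and fetal growth genes, many of which are high in fetal tissues and are switched off after birth, were tested next as 1 list. Of 13 tested, 8 fell, 5 were not called and none rose, with a median change of -3.43, and 2, 5, 8 and 7 fell without D0, D24, D56 and D300. Mest was the most abundant of them at D0, at 1948, 609, 80.9, 10.3 and 13.9 CPM against 825, 227, 35.7, 11.7 and 3.7 in the other endothelial cells and 1531, 555, 74.9, 25.6 and 15.1 in cells without Pecam1, and it changed by -7.93 ± 1.24 (SE, adjusted p = 0.0241). Grb10, an adaptor that dampens insulin signalling, was at 194, 111, 97.2, 77 and 56.6 CPM. These 2 genes were higher in members than in the other endothelial cells at 4 and 5 of 5 ages. Dlk1, a Notch-like growth factor, was at 640.5, 12.5, 5.06, 1.15 and 0 CPM, so it was at least 369.8-fold lower at D300 than at D0 when the 0 counts at D300 are set to 3. The noncoding RNA H19 was at 631, 25.6, 8.99, 0.574 and 0 CPM and at least 365-fold lower. Meg3, Igf2, Plagl1 and Ndn fell too, with D0 levels of 618, 96, 55.6 and 114 CPM. Cells without Pecam1 held far more of several, with 5231 CPM of Dlk1 and 5681 CPM of Meg3 at D0. Members held 12.2% and 10.9% of those levels, 24.2% for H19, 39.7% for Igf2 and 127% for Mest. For the fibroblast genes the value at D0 was 11.6%. The part of RNA from other cells in these levels was not tested.

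Of the 11 fibroblast genes tested, 4 fell and none rose, with a median change of -0.86, and the level in cells without Pecam1 is given beside them. Mfap4, a microfibril protein, was at 264, 22.2, 14.1, 2.3 and 0 CPM in members and 1593, 727, 276, 27.5 and 9.11 in cells without Pecam1, and a single cell held 29.2% of its counts in members. Col1a1, Col1a2 and Col3a1, fibroblast collagens, fell by 5.64, 4.14 and 3.89 on the log2 scale, from 10.5%, 12.6% and 11.8% of the level in cells without Pecam1 at D0. Ptn, the growth factor pleiotrophin, was at 359, 72.7, 12.9, 17.8 and 2.89 CPM against 3124, 1499, 334, 69.1 and 40.9, and Cthrc1, a collagen-associated protein, at 96, 25.6, 5.62, 1.15 and 0 CPM against 348, 96, 56, 6.2 and 1.73. Sox11, a transcription factor of embryonic tissue, was at 106, 33.2, 7.87, 1.15 and 0 CPM in members and 21.1, 9.31, 2.01, 0.435 and 0 in the other endothelial cells, so it was higher in members at D0, D10 and D24, and cells without Pecam1 held 45.5, 18, 6.18, 4.71 and 0.943 CPM. It changed by -7.13 ± 0.94 (SE, adjusted p = 0.0128), and 95 members had a UMI of it.

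Of 18 VEGF, Tie and apelin genes tested, 2 rose, 1 fell and 15 were not called, beside 2.23% and 1.64% of all genes, with a median change of 0.48. Apln, the peptide of the apelin receptor and a mark of sprouting cells, was at 159.6, 45.7, 37.1, 29.3 and 11.5 CPM, higher than in the other endothelial cells at every age, and changed by -3.46 ± 0.32 (SE, adjusted p = 0.00319). At equal depth 18%, 7.25%, 4.26%, 3.27% and 1.06% of members had a UMI of it. Esm1 rose, by 1.34 ± 0.26 (SE, adjusted p = 0.0367), from 119 to 268 CPM, and Nr4a1, a nuclear receptor that VEGF and other stimuli induce, changed by 2.03 (adjusted p = 0.0385). Of 14 tip cell markers tested, Apln and Nid2 fell while Esm1 and Dll4 rose. Flt1, Nrp1 and Aplnr, with fitted values of 1.37 (adjusted p = 0.0932), 1.14 (adjusted p = 0.0826) and -1.38 (adjusted p = 0.156), did not pass the test. Among 15 Notch genes, only Dll4, the ligand of arterial and sprouting endothelium, was called, at 84.9, 108, 129.8, 155 and 248 CPM and 1.78 (adjusted p = 0.0266). Of 12 arterial genes, Dll4 rose and Fbln5 and Stmn2 fell. Hey1, a Notch target, stood at 108, 233, 167, 110.3 and 90.1 CPM with its highest value at D10. None of 13 BMP and TGF-beta genes was called.

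Of 20 basement membrane genes tested, 2 fell and none rose, beside 1.64% and 2.23% of all genes, with a median change of -0.96 and 15 fitted values below 0. Col4a1, a chain of type IV collagen, was at 1538, 1706, 1542, 905 and 534 CPM against 299, 497, 437, 226 and 182 in the other endothelial cells, with a fitted value of -1.35 (adjusted p = 0.161). Nid2, a linker of laminin and collagen, was at 195, 163, 112, 51.7 and 20.8 CPM, and Col18a1, the source of endostatin, at 185, 121, 51.7, 12.6 and 3.46 CPM, with changes of -2.97 (adjusted p = 0.0369) and -5.09 (adjusted p = 0.0277). Sparc, a matrix protein, had 5308, 5741, 5098, 3393 and 1762 CPM. It was the lowest at D300 of the 5 ages, as were Col4a1, Nid2 and Col18a1. None of 13 pan-endothelial genes outside the rule was called, with 767, 704, 686, 678 and 490.2 CPM of Cdh5 (VE-cadherin). In the junction and caveola list 1 of 16 genes rose, Jam3, at 179, 333, 365, 570.4 and 483 CPM, and among 27 transcription factors 1 fell, Lyl1, at 26.3, 9, 3.37, 2.87 and 3.46 CPM.

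Against the other endothelial cells, a contrast that the choice of cells bears on, 14 of 28 endothelial transcription factors were higher in members at 5 of 5 ages and Lyl1, Meox2, Foxc1 and Nr2f2 lower at 5 of 5, beside 18.4% and 16.3% of all genes. In the BMP and TGF-beta list of 17 genes these were 6 and, lower, Bmp4 and Smad1. Since the rule chose the cells by this contrast, nothing is read from these counts. The most abundant genes are described here. Sox18 and Sox17, factors of blood vessel identity, stood at 417, 816, 748, 872 and 646 CPM (Sox18) and 363, 542, 446, 368 and 341 CPM (Sox17) in members, against 287, 316, 323, 297 and 190.4 and 146, 151, 77.5, 77.3 and 75.8. Epas1, a factor of the hypoxia response, was at 287, 404, 551, 487 and 480.4 CPM against 147, 149, 166, 143 and 152. These 3 were higher in members at 5 of 5 ages, with fitted age values of 0.92 (adjusted p = 0.246), 0.02 (adjusted p = 0.986) and 1.02 (adjusted p = 0.127). Of the BMP and TGF-beta list, the receptor genes Eng and Acvrl1 were at 831, 952, 1053, 831 and 445 CPM (Eng) and 176, 207, 293, 291 and 228 CPM (Acvrl1), and the target Id3 at 849.6, 1197, 1301, 1496 and 1110.3 CPM. These 3 were among the 6 higher at every age, and Eng was lowest at D300. The sialomucins Cd34 and Emcn were at 1224, 1409, 1227, 1193 and 869.6 CPM (Cd34) and 787, 761, 1058, 923 and 713 CPM (Emcn), against 508, 492, 266, 324 and 399 and 205, 234, 224, 247 and 287. Plvap, which forms the diaphragms of fenestrae and caveolae, was at 2681, 2805, 3744, 3547 and 2798 CPM, and the water channel Aqp1 at 1081, 452, 1491, 1989 and 1195 CPM with its lowest level at D10. Ccl21a, a chemokine of lymphatic and stromal cells, ran the other way, with 100.0, 913, 739, 3371 and 1983 CPM in members against 3928, 4317, 4941, 11764 and 9712 in the other endothelial cells and 1384, 18898, 15728, 27761 and 21118 in cells without Pecam1.

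Leaving out the genes that chose the cells, 2 of 16 capillary markers and 3 of 21 lipid genes rose and none fell, beside 2.23% and 1.64% of all genes that rose and fell, with median changes of 0.89 and 0.75 over the lists. Ly6c1, a surface protein anchored by GPI, was at 359, 599, 1984, 3261 and 2553 CPM in members, 26.3, 89.6, 269, 478 and 464 in the other endothelial cells and 59.6, 98.1, 531, 583 and 299 in cells without Pecam1, and it rose, by 3.67 ± 0.80 (SE, adjusted p = 0.0472). At equal depth it was detected in 45.3%, 52.8%, 92.9%, 96.7% and 97.1% of members. Btnl9, a butyrophilin-like receptor, was at 59.6, 88.6, 128, 236 and 226 CPM and changed by 2.43 (adjusted p = 0.0283). The other 14 of these 16 genes were not called. Among the lipid genes, Plin2, which coats lipid droplets, and Apoe, which carries lipids between cells, rose, with changes of 1.29 (adjusted p = 0.0412) and 3.61 (adjusted p = 0.0248). Thrsp, which promotes fatty acid synthesis, was the third, at 50.5, 57.5, 144, 189 and 202 CPM in members and 3.75, 8.14, 14.1, 22.2 and 27.7 in the other endothelial cells, with a change of 2.53 (adjusted p = 0.0405). Apoe was at 504, 1256, 1557, 4409 and 4015 CPM in members, 709, 2198, 3251, 7496 and 6537 in the other endothelial cells and 1990.2, 14211, 12793, 18676 and 23241 in cells without Pecam1, so it was lowest in members at every age. Scarb1, a receptor for high density lipoprotein, reached 309, 291, 605, 774 and 902 CPM against 49.7, 95.4, 92.1, 107 and 224 in the other endothelial cells, with a fitted value of 1.97 (adjusted p = 0.0536). Among 16 glycolysis genes, Pfkfb3, which speeds glycolysis in sprouting endothelium, rose from 4.04 to 49.7 CPM, by 3.57 (adjusted p = 0.00833), and the abundant Gapdh and Aldoa had fitted values of 0.51 (adjusted p = 0.312) and 0.38 (adjusted p = 0.456).

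Enzyme digestion can induce immediate-early and stress genes. Of 26 tested, 11 rose, 15 were not called and none fell, with a median change of 1.92, and 12, 0, 4 and 0 rose without D0, D24, D56 and D300. Jun was at 1545, 2313, 3048, 3725 and 5311 CPM in members and 3168, 3007, 2723, 5078 and 7279.9 in cells without Pecam1, and Btg2 at 329, 294, 540.1, 1345 and 2333 CPM. Fos and Hspa1a had fitted values of 1.90 (adjusted p = 0.0679) and 1.35 (adjusted p = 0.145). Heat shock genes with at least 2 UMIs were carried by 68%, 77.7%, 96.1%, 94% and 95.5% of members at equal depth and by 64.7% to 89.7% of cells without Pecam1. Klf4, a factor that blood flow and stress both induce, was at 229, 213, 352, 559.5 and 882 CPM, and Apold1, an early response gene of endothelium, at 97, 102, 210.2, 190.1 and 446 CPM against 3.41 to 29.4 in cells without Pecam1. These 2 were the genes called among 20 flow and vessel tone genes, and Klf2 was at 988, 884, 1216, 1231 and 1525 CPM. The part of tissue handling in these levels was not tested.

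Cdkn1a, the cell cycle inhibitor p21, rose with age. Its level was 64.7, 74.8, 215, 339.5 and 969 CPM from D0 to D300, 73.2, 75, 114, 181 and 326 in the other endothelial cells and 36, 12.8, 51, 109 and 354 in cells without Pecam1. It rose by 4.34 ± 0.60 (SE, adjusted p = 0.0167) in members and by 2.60 (adjusted p = 0.0154) in the other endothelial cells. Pmaip1, a cell death gene of the p53 pathway, was at 1.01, 2.08, 12.9, 14.9 and 57.2 CPM, against 3.52 to 8.32 in the other endothelial cells and 1.79 to 5.34 in cells without Pecam1, and changed by 6.51 ± 0.76 (SE, adjusted p = 0.00778). Igfbp3, a binding protein of insulin-like growth factors, was at 485, 530.5, 868, 1232 and 1502 CPM against 124, 95.4, 102, 192 and 201 in the other endothelial cells and changed by 2.01 (adjusted p = 0.0367). Cdkn1a and Igfbp3 were the 2 genes called of 10 in the senescence list, beside 2.23% of all genes that rose, and the list's median change was 0.35. The immediate-early genes above rose across the same libraries.

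Of the 12 genes with the largest rises, Pmaip1, Scgb3a1, Msmp and Inhbb had higher levels in members than in both other classes at D24, D56 and D300. Scgb3a1, a small secreted protein, was at 3.03, 8.31, 38.8, 186 and 408 CPM in members, 0.469, 2.33, 6.54, 21.7 and 69.3 in the other endothelial cells and 0, 0.0927, 0.386, 2.68 and 11.5 in cells without Pecam1, and it changed by 8.57 (adjusted p = 0.00778). Msmp, a secreted microseminoprotein, was at 2.02, 6.93, 9.55, 15.5 and 66.4 CPM with at most 0.471 in cells without Pecam1. Inhbb, a subunit of activin B, was at 7.07, 6.23, 28.7, 46.5 and 93 CPM against 0, 4.07, 6.04, 13.5 and 21.3 in the other endothelial cells. At D0 and D10 these 4 genes rested on 1 to 12 UMIs in members, with 1 and 3 for Pmaip1, so the sizes of their fitted changes are uncertain, and cells without Pecam1 held 0.371 to 5.97 CPM of Inhbb.

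Inmt, a methyltransferase, was at 5.05, 4.85, 7.87, 119 and 191 CPM in members and 11.3, 169, 223, 907 and 2451 in cells without Pecam1. The metallothioneins Mt1 and Mt2, which bind zinc, were at 60.6, 25.6, 155, 371 and 1074 CPM (Mt1) and 10.1, 4.16, 51.7, 125 and 181 CPM (Mt2). The inflammation genes Il6 and Tnfaip6 were at 7.07, 20.8, 46.6, 123 and 126 CPM (Il6) and 11.1, 9.7, 46.6, 109.7 and 132 CPM (Tnfaip6). These 5 genes were all below their levels in cells without Pecam1 at every age. One cell held 13.9% of the Tnfaip6 counts and 1 cell 8.5% of the Il6 counts in members. Sbno2 was at 2.02, 9.7, 26.4, 12.6 and 73.3 CPM against 2.4, 0.742, 8.88, 11.1 and 50.3 in cells without Pecam1, and Gm17056, an RNA that the GENCODE annotation types as antisense and that overlaps Lsmem1, at 12.1, 22.2, 35.4, 40.8 and 179 CPM against 30.5, 16.9, 57.3, 70.3 and 207. Changes of these 7 genes ran from 4.54 to 7.50.

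Glycam1, the homing ligand named above, was at 14.1, 72.7, 243, 356 and 682 CPM in members, 19.3, 47.2, 283, 484 and 702 in cells without Pecam1 and 1190.0, 2591, 10854, 15354 and 45390.0 in the other endothelial cells. Members thus held 73.3%, 154%, 85.8%, 73.7% and 97.3% of the level in cells without Pecam1, and the change in members, 5.91 ± 0.60 (SE, adjusted p = 0.00443), stood beside 5.77 (adjusted p = 0.00262) in the other endothelial cells. Cxcl1, a neutrophil chemokine, was the other gene of the 21 leukocyte adhesion genes that rose, at 334, 540.2, 969.5, 1024 and 2021 CPM, and cells without Pecam1 held 942, 668, 2451, 4685 and 8974 CPM of it. Vcam1 was at 57.6, 102, 66.9, 114 and 111 CPM in members against 174, 240.2, 387, 716 and 591, and Cxcl12 at 740.5, 1418, 1388, 1733 and 1054 CPM against 196, 489, 384, 988 and 804. Of 9 venular and high endothelial genes outside the rule, Glycam1 rose and Madcam1 fell, and of 7 lymphatic and 10 perivascular genes none was called. Vcam1 was lower and Cxcl12 higher in members at every age.

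**Figure D5:**
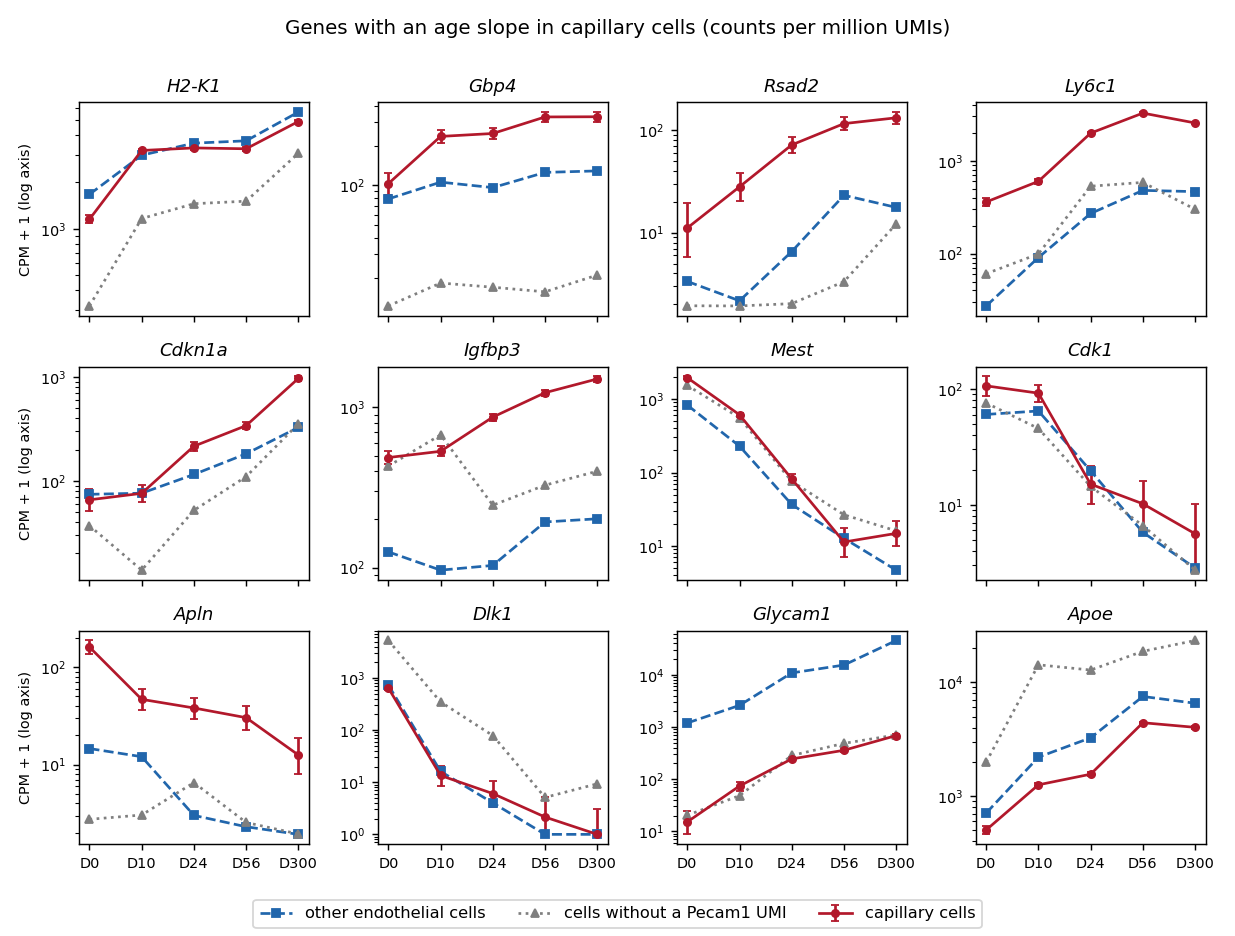
Levels of 12 genes called in the age test, in counts per 1000000 UMIs plus 1 on a log axis, by age, for capillary cells (red, with 95% Poisson intervals of the counts), other endothelial cells (blue) and cells without Pecam1 (grey). Rsad2, Cdkn1a and Igfbp3 ended highest in capillary cells, whereas Dlk1 and Apoe were highest in cells without Pecam1 and Glycam1 in other endothelial cells at every age.

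Whether the age slope of capillary cells differed from that of the other endothelial cells was tested in 1 fit over the 10 sums, with age as a block. Of 11129 genes, 15 had a higher slope in members (0.135%) and 23 a lower one (0.207%). The fit has 3 residual degrees of freedom, and its count depended on the ages and cells in it: it was 104 without D10 and 5 without D300, and 84 without the lymphatic cells in the other class.

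Madcam1, the ligand for gut-homing lymphocytes on high endothelial venules, differed most among the genes outside the hemoglobins that passed the limits for naming. It fell in members, at 282, 135, 28.1, 27.6 and 19.6 CPM, with a change of -4.08 ± 0.61 (SE, adjusted p = 0.0222), and rose in the other endothelial cells, at 481, 1058, 1353, 994 and 1826 CPM, with a change of 2.15 (adjusted p = 0.0135). The difference of the changes was -6.24 ± 0.56 (SE, adjusted p = 7.05e-05). Cells without Pecam1 held 52.1, 54.3, 47.4, 65.7 and 31.4 CPM, so the level in members was above theirs at D0 and D10 and below it from D24 on. At equal depth 24.2%, 12.4%, 5.67%, 5.45% and 3.69% of members had a UMI of it. Pglyrp1, a peptidoglycan recognition protein, was at 49.5, 115, 70.8, 53.4 and 35.2 CPM in members and 144, 369, 717, 477 and 1305 in the other endothelial cells, a difference of -3.85 (adjusted p = 0.0079). Without lymphatic and venular cells in the other class, an alternative chosen after seeing the data, that difference was 0.17 (adjusted p = 0.972). Of the 10 genes named for their difference, 4 kept the call there (Madcam1, Ackr3, Fbln5 and Emp2), and with the rule applied to thinned cells 3 did (Madcam1, Ackr3 and Fbln5). Gm525 was at 96, 31.2, 16.3, 19 and 15.6 CPM against 11.3, 27.3, 12.6, 16.9 and 31.4, a difference of -3.98 (adjusted p = 0.0079), and Ptn and Mfap4, described above, differed by -3.85 (adjusted p = 0.0079) and -3.14 (adjusted p = 0.0478). For Mfap4 the call held in 6 of 17 alternatives, and with the rule applied to thinned cells the difference was 3.65 (adjusted p = 0.601).

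Without D300, Madcam1 alone of the 10 genes named for their difference passed the test, and without D0 Madcam1, Ackr3 and Pglyrp1 did. Lrrc32 and Mfap4 were also lost without D56, and Mfap4 without D24.

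In the other direction, the fitted slope was higher in members. Lrrc32, which holds latent TGF-beta at the surface, was at 33.3, 36.7, 89.4, 101 and 158 CPM in members and 54.4, 47.7, 49.8, 57.8 and 51.8 in the other endothelial cells, a difference of 2.35 (adjusted p = 0.0296). Ackr3, a scavenging receptor for Cxcl12, was at 33.3, 21.5, 50.02, 69.5 and 91.2 CPM against 202, 91.3, 179, 140.3 and 81.3, a difference of 2.76 ± 0.41 (SE, adjusted p = 0.0079). Cdc42ep3, an effector of Cdc42, and Emp2, a membrane protein, were at 101, 73.4, 132, 134 and 193 CPM (Cdc42ep3) and 32.3, 31.9, 21.4, 47.1 and 80.3 CPM (Emp2) in members and differed by 2.23 (adjusted p = 0.0115) and 2.28 (adjusted p = 0.0115). Fbln5, an elastic fiber protein of arteries, fell in both classes, to 49.7 CPM at D300 from 278 in members and to 61 from 2092 in the other endothelial cells, a difference of 2.57 (adjusted p = 0.0079). Outside the rule for named genes, and chosen after their values were seen, Cdkn1a was called with 1.76 (adjusted p = 0.0434), Smad6, a brake on BMP signals, with 4.61 (adjusted p = 0.0298), and Gja5, a gap junction gene of arteries, with 5.22 (adjusted p = 0.00427). Gja5 fell from 114 to 0.924 CPM in the other endothelial cells and stood at 18.2, 23.5, 13.5, 9.19 and 5.77 CPM in members. Smad6 was at 17.2, 37.4, 20.2, 25.3 and 22.5 CPM in members, with a fitted value of 0.36 (adjusted p = 0.741). In the other endothelial cells it was at 30.0, 13.4, 11.1, 4.35 and 0 CPM.

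The 4 hemoglobin genes gave the most extreme differences, and these came from single cells. Members held 8069, 5483, 6227 and 11239 hemoglobin UMIs at D0, D10, D24 and D56, and the single highest cell held 5625, 5479, 6075 and 11135 of them, with a further 2407 in a second cell at D0. In all, 7 of 1364 members had 50 or more, and 5 of them had 2407 to 11135, which was 21.6% to 84.8% of their UMIs, along with 2 to 25 UMIs of Alas2, the heme synthesis enzyme of red cell precursors. No member at D300 had more than 4, while 1 other endothelial cell there had 2606. Without such cells in either class, 214 genes rose and 158 fell with age in members, of which 205 and 151 were called before, and the slope difference was called for 53 genes. Red cell precursors of the mouse carry CD24, which the sort selected against. Whether these droplets held a capillary cell together with an erythroid cell was not tested.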

How the data were processed

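Single-cell RNA-seq counts (10x Genomics 3' v2) of 7 mLN libraries at 5 ages were deposited by the authors as 1 table of whole UMI counts, 27998 genes by 17692 cells, unfiltered for the limits above and not normalized. Per the labels and the study's methods, Cell Ranger 2.0.0 with STAR on mm10 made the counts, and Seurat 2.3.3 served later steps. The stated limits left 13197 cells, fewer than the study reports. Cells carry running numbers in place of barcodes, so barcodes shared between libraries could not be counted, and no pair of cells had identical counts.

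Cells were gated and summed by age in Python 3.11.15 with numpy 2.4.6, scipy 1.17.1, pandas 2.3.3 and scanpy 1.11.5. Scrublet marked 94 of 17692 cells as doublets (0.531%) and these stayed in, with the top 5% of scores left out as an alternative. Slopes on log2(day + 1) and slope differences were tested with edgeR 4.0.16 (TMM, quasi-likelihood, Benjamini-Hochberg over all genes with at least 50 UMIs in R 4.3.3), after a check on simulated counts. DESeq2 1.42.0 and the other settings are given with their effect below. CPM intervals are exact Poisson intervals. A 0 count was set to 3 counts for fold bounds. Exact intervals cover counting error only.

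Named genes were, for age, the 12 rising and 12 falling called genes with the largest fitted change and at least 50 CPM at some age, leaving out genes of the rule and sex-linked, mitochondrial, acinar and erythroid genes. The 5 largest slope differences per direction under the same limits, the 10 highest and 10 lowest ratios to other endothelial cells, and the most abundant genes of each list completed them. The capillary cells and the lists were chosen with earlier results of these data known. Promoter windows are RefSeq sequences, and gene types are from GENCODE release M21. Protein sequences were not used here, 1 gene of the lists is not reported here, and 3 genes of the junction and caveola list were not analysed here. Of the 16 acinar and 5 erythroid genes tested for age none was called, while 4 erythroid genes, all hemoglobins, were called in the test of slope differences. The Schwann, mesothelial, leukocyte and platelet lists had too few counts to test. Genes of the rule were left out of the counts and medians of lists for age.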

Additional observations from a re-analysis of the deposited data

Results flagged for a closer look

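The slope on age differed between capillary and other endothelial cells for 38 of 11129 genes by the test of the difference itself (edgeR's quasi-likelihood test with an interaction term and age as a block, Benjamini-Hochberg adjusted p under 0.05). Differences are fitted log2 changes from D0 to D300 in members minus those in other endothelial cells. They were 2.76 for Ackr3, 2.57 for Fbln5, 2.35 for Lrrc32, 2.28 for Emp2 and 2.23 for Cdc42ep3, and -6.24 for Madcam1, -3.98 for Gm525, -3.85 for Pglyrp1, -3.85 for Ptn and -3.14 for Mfap4. The other endothelial cells are a mixture whose parts differed in share between ages, and the part of this in the differences was not tested. Without lymphatic and venular cells in the other class, 4 of the 10 differences kept the call (Madcam1, Ackr3, Fbln5 and Emp2), 5 lost it and 1, for Pglyrp1, turned in sign.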

How the results depend on the processing

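Without D0, D10, D24, D56 or D300, the count of genes with an age slope ran from 42 to 345 and that of slope differences from 5 to 104. Against 357 slopes, DESeq2 called 559, no filter on low counts 727, early against adult ages 3 and the rule on cells thinned to 2000 UMIs 195, and the other alternatives run gave 289 to 468. Against 38 slope differences, DESeq2 called 17, no filter 195, the thinned rule 20, other endothelial cells without lymphatic ones 84, and, chosen after seeing the data, leaving out the cells richest in RNA of another type 87. For the causes of these shifts no test was made. The difference for Pglyrp1 turned to 0.17 (adjusted p = 0.972) without lymphatic and venular cells, and that for Mfap4 to 3.65 (adjusted p = 0.601) with the thinned rule. Of 494 alternative values for the 24 genes named for age, 427 kept their call and direction and 67 lost the call, and of 170 for the 10 differences 128 kept it and 40 lost it. Madcam1 was called in 17 of 17.

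The capillary share was 72.2% at D300 with a marker sum of at least 2. With at least 5 it was 42.0%, 48.1%, 42.2% and 56.04% at D10, D24, D56 and D300. On thinned cells it was 41.0%, 39.9% and 61.3% at D0, D10 and D300, and without limits on cells 43.6%, 44.0% and 61.6% at D10, D56 and D300. With Pecam1 of at least 1 UMI it was 23.4%, 37.6%, 42.0%, 36.6% and 54.4% from D0 to D300. Among blood endothelial cells it was 51.6%, 64.3%, 72.5%, 65.1% and 75.5%. Without cells holding RNA of another type it was 100%, 54.2%, 60.5%, 55.2% and 77.4%, from 2 to 62 endothelial cells per age. D300 exceeded D0 in each setting but the last. Genes at least 2-fold higher and lower at every age numbered 109 and 119 without lymphatic cells and 12 and 63 with the thinned rule.

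No paired analysis was possible because the cells of an age cannot be assigned to its libraries, and no replicate block was fitted. The block in the fit of slope differences is the age, which both classes share. The planned limit of 2 UMIs of another type was not run for slopes, since it left 2 members at D0. With 989883 UMIs at D0, 3 counts correspond to 3.03 CPM, and lower levels cannot be told from 0.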

Other observations

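Genes outside the rule for naming, chosen after their values were seen, also had lower slopes in members. Col15a1, a collagen of vessel basement membranes, was at 352, 339, 353, 229.8 and 137 CPM in members from D0 to D300 and 55.4, 144, 115, 95.2 and 81.3 CPM in the other endothelial cells, a difference of -1.85 (adjusted p = 0.0434) by edgeR's quasi-likelihood test. Mfge8, a bridging protein in the clearance of dying cells, was at 537, 923, 633, 986 and 643 CPM against 433, 871, 899.9, 1552 and 1897, a difference of -1.97 (adjusted p = 0.00901). Cd74, the invariant chain of MHC class II, was at 152, 256, 108, 179 and 191 CPM against 193, 379, 362, 373 and 986. Pltp, a phospholipid transfer protein of plasma lipoproteins, was at 259, 242, 348, 484 and 312 CPM against 57.2, 89.6, 146, 219 and 381, a difference of -2.42 (adjusted p = 0.0079).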
